A study of Rattus norvegicus with 12 samples.

Results

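The PGC-1, PPAR and ERR regulators are the 10 genes Ppargc1a, Ppargc1b, Ppara, Ppard, Pparg, Esrra, Esrrb, Esrrg, Nrf1 and Tfam, picked by name from the 32545 genes of the expression table. All 10 had a mean of at least 0.5 FPKM (fragments scaled to gene length and library size) and were among the 13910 genes tested. They were followed in free-wall tissue of the right (RV) and left (LV) ventricles of Sprague–Dawley rats taken at postnatal day 7 (P7). Pups had received a fistula from the abdominal aorta to the inferior vena cava at P1, which causes volume overload (VO), or a sham operation at P1. Each of the 4 groups (LV or RV, after sham surgery or VO) had 3 poly(A) RNA libraries, with 14121713 to 16871371 reads on genes. The study asked how the neonatal ventricles differ and how each responds to VO. The labels do not say that the 3 libraries of a group came from separate animals, so p-values measure the spread between libraries.

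The heart shifts its fuel from glucose towards fatty acids in the weeks after birth, and these genes sit at the centre of that shift. PGC-1α (Ppargc1a) and PGC-1β (Ppargc1b) are coactivators without a DNA-binding role of their own, and they act through nuclear receptors and other factors. The PPAR receptors bind fatty acids and, paired with RXR, turn on genes of fatty acid uptake and oxidation. The ERR receptors are orphan receptors that act on genes of the citric acid cycle and respiratory chain. Nrf1 (nuclear respiratory factor 1) acts on nuclear genes of mitochondria, and Tfam packages and transcribes mitochondrial DNA.

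The bases before the RefSeq transcription start are shown for the 3 regulators whose levels varied most over the 12 libraries (Esrrb, Ppara and Ppargc1a) and for 2 that varied less (Esrra and Tfam). RefSeq windows on the GRCr8 build matched 9 of the 10 regulators, with 13 windows in all, and each window here is the 250 bases upstream of the start, 5′ to 3′ on the gene's strand. Ppard had no entry. Motifs were searched on both strands, and capitals mark the matches, which are the cAMP response element TGACGTCA in Ppargc1a and the NRF1 core GCATGCGC in Ppara and Esrra.
Ppargc1a: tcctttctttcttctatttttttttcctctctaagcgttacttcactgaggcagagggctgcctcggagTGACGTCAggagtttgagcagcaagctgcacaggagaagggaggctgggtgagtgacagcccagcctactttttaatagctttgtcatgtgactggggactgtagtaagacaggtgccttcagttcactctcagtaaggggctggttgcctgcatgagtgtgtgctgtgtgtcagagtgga
Ppara: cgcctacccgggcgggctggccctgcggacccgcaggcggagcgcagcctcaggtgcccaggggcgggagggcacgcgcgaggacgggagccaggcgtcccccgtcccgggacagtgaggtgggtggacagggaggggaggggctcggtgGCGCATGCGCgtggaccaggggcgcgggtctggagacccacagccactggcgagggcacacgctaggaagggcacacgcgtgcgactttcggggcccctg
Esrrb: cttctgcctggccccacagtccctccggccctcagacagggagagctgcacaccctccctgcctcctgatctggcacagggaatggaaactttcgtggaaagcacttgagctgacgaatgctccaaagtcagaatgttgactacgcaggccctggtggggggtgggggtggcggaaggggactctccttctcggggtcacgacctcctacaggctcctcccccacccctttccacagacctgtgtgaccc
Esrra: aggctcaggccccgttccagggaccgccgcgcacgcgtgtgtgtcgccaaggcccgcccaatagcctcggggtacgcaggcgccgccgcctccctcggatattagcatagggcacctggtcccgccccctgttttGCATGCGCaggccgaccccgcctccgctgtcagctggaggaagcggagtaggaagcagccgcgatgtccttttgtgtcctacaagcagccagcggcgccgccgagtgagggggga
Tfam: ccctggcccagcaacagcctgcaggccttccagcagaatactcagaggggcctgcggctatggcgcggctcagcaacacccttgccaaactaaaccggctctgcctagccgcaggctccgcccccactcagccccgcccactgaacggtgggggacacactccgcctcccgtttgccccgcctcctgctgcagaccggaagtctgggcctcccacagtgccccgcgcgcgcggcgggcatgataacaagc
In order, the windows are chr14:63634058-63634307 (plus strand), chr7:118712357-118712606 (plus strand), chr6:111738412-111738661 (plus strand), chr1:213543306-213543555 (minus strand) and chr20:17355123-17355372 (plus strand). The element of Ppargc1a began at position −181 from the start, and 1.59% of all 33469 windows of this length held the same 8 letters. In Ppara the NRF1 core lay on both strands of an overlapping stretch, from −100 and −98, and in Esrra it began at −115. That core was present in 2.20% of all windows. G and C made up 76% of the Ppara window and 68.8% of the Esrra window, against a median of 51.2% over all windows. The share is thus not one of windows of like GC content. An ERR element, TNAAGGTCA, was in 1.04% of all windows and in none of the 13. A PPAR element, written as AGGTCA repeated after 1 base, was in 0.0508% of all windows and in none of the 13. A match is a description of the letters and not evidence of binding.

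Esrra had the highest mean at 47.0 FPKM, followed by Tfam at 35.0, and the ranges of these 2 overlapped. Every library had Tfam above Ppard, the next in order at 10.3 FPKM. Ppargc1b (8.41), Nrf1 (7.85), Ppargc1a (7.28), Esrrg (6.51), Esrrb (5.78), Ppara (4.74) and Pparg (2.65) followed, and the ranges of all neighbours from Ppard down overlapped, so that order is not settled. Among the coactivators Ppargc1b and Ppargc1a were of like level, and among the ERR genes Esrra was far above the others. The highest library was 7.20 times the lowest for Esrrb, 3.22 for Ppara, 3.02 for Ppargc1a and 2.36 for Ppargc1b, but 1.38 or less for Tfam and Nrf1. Esrrb rested on 33 to 250 reads a library, Pparg on 62 to 119, Ppara on 76 to 272 and Ppargc1a on 171 to 574, against 1277 to 2014 for Esrra.

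**Figure D1:**
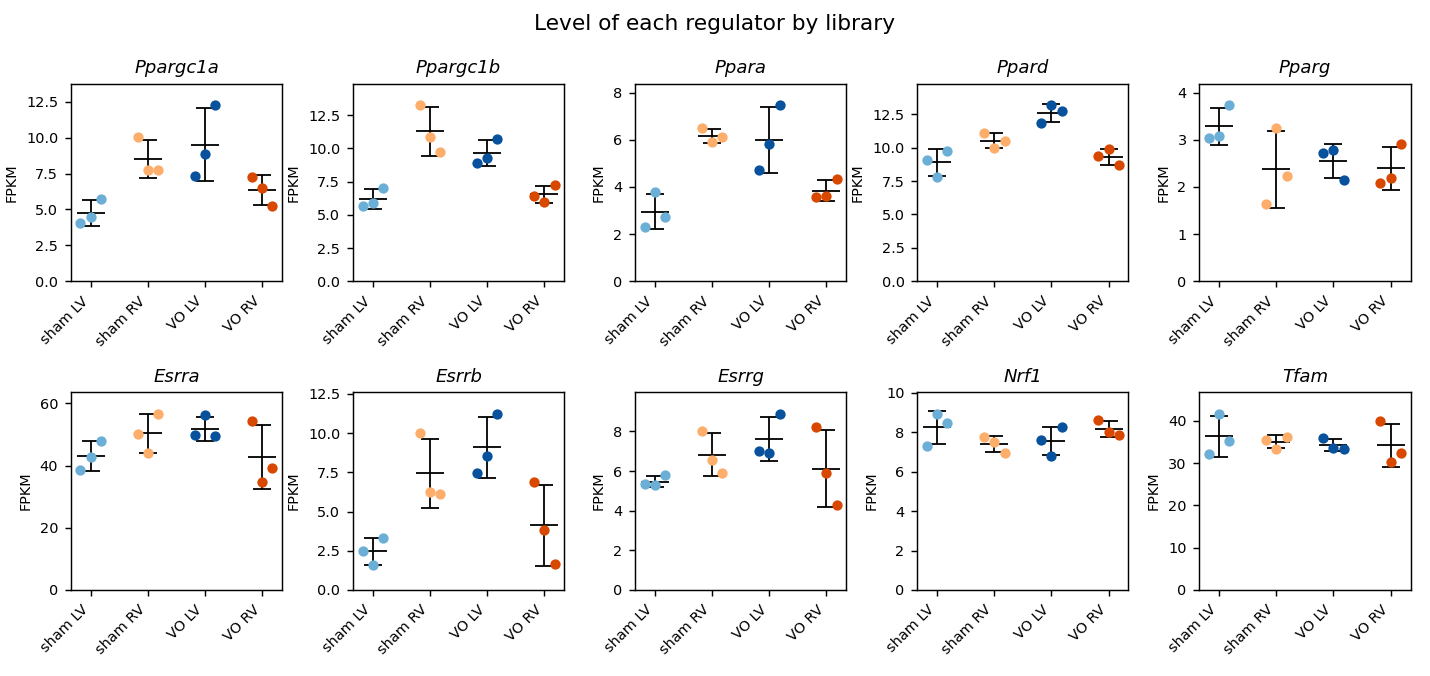
Level of each regulator in FPKM (vertical axis, from 0, scaled per gene) in the 4 groups. Points are the 3 libraries of a group, the wide line is their mean and the bars are 1 SD. Ppargc1a, Ppargc1b, Ppara and Esrrb are low in sham LV and high in sham RV and VO LV. In VO RV, Ppargc1b lies with sham LV, Ppargc1a, Ppara and Esrrb have means in between, and Nrf1 and Tfam vary little over all groups.

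Ppargc1a (ENSRNOG00000004473, listed on chromosome 14 from 63095720 to 63187009, plus strand) read 4.06, 4.44 and 5.75 FPKM in sham LV and 10.04, 7.77 and 7.72 in sham RV. It read 7.34, 8.89 and 12.3 in VO LV and 7.29, 6.50 and 5.22 in VO RV. Every sham LV library was below all those of sham RV and VO LV, while VO RV replicate 3 lay within the sham LV range. The group means were 4.75 ± 0.885, 8.51 ± 1.33, 9.51 ± 2.53 and 6.34 ± 1.04 FPKM (SD, n = 3 each), given here and further on with the sham LV first, then the sham RV, the VO LV and the VO RV. The table's positions are given here as listed, on a build that is not stated in the sources used here.

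Ppargc1b (ENSRNOG00000017503, listed on chromosome 18 from 56626712 to 56728968, minus strand) read 5.63, 5.90 and 7.02 FPKM in sham LV and 13.3, 10.8 and 9.72 in sham RV. It read 8.92, 9.29 and 10.7 in VO LV and 6.43, 5.95 and 7.23 in VO RV. The sham LV and VO RV libraries formed a low band and the sham RV and VO LV libraries a high one, with no overlap between the bands. Group means were 6.18 ± 0.736, 11.3 ± 1.82, 9.65 ± 0.959 and 6.54 ± 0.649 FPKM (SD, n = 3 each) in the same order.

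Ppara (ENSRNOG00000021463, listed on chromosome 7 from 126619196 to 126681752, plus strand), the receptor that drives fatty acid oxidation, read 2.32, 3.79 and 2.75 FPKM in sham LV and 6.48, 5.92 and 6.10 in sham RV. It read 4.71, 5.83 and 7.49 in VO LV and 3.56, 3.61 and 4.34 in VO RV. Here too the sham RV and VO LV libraries lay above all others. Ppard (ENSRNOG00000000503, listed on chromosome 20 from 7818289 to 7885333, plus strand), a PPAR of broad tissue range, read 9.11, 7.82 and 9.76 in sham LV, 11.1, 10.003 and 10.5 in sham RV, 11.9, 13.2 and 12.7 in VO LV and 9.41, 9.89 and 8.67 in VO RV. Its VO LV libraries were above all 9 others, and its sham RV libraries were above those of sham LV and VO RV. Pparg (ENSRNOG00000008839, listed on chromosome 4 from 147274107 to 147399380, plus strand), the PPAR of fat cells, had group means of 3.29 ± 0.395, 2.37 ± 0.819, 2.55 ± 0.352 and 2.39 ± 0.456 FPKM (SD, n = 3 each). It was the one PPAR with its highest group mean in sham LV. The fat-cell genes Adipoq, Plin1, Ucp1, Lep, Retn and Cidec were each at 0.12 FPKM or less in every library. The other 3 of the 9 listed fat-cell markers were present, with Fabp4, which endothelial cells also express, at 451 to 1100 FPKM, Cidea at 56.7 to 133 and Cfd at 1.46 to 4.88.

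Esrrb (ENSRNOG00000010259, listed on chromosome 6 from 110410141 to 110455906, plus strand) read 2.50, 1.56 and 3.33 FPKM in sham LV and 9.998, 6.22 and 6.15 in sham RV. It read 7.46, 8.56 and 11.3 in VO LV and 6.86, 3.81 and 1.68 in VO RV. The VO RV libraries ran from within the sham LV range to within the sham RV range. Group means were 2.46 ± 0.882, 7.46 ± 2.20, 9.09 ± 1.95 and 4.12 ± 2.60 FPKM (SD, n = 3 each), so that Esrrb had the lowest mean of the 10 regulators in sham LV and stood above Ppara and Pparg in the other groups. Esrrg (ENSRNOG00000002593, listed on chromosome 13 from 106463368 to 106683436, plus strand), an ERR tied to the oxidative programme of the perinatal heart, read 5.33, 5.28 and 5.78 in sham LV, 8.04, 6.56 and 5.90 in sham RV, 7.02, 6.92 and 8.90 in VO LV and 8.20, 5.90 and 4.29 in VO RV. VO RV spanned nearly the whole range of Esrrg. Esrra (ENSRNOG00000021139, listed on chromosome 1 from 222168730 to 222178725, minus strand), the most abundant ERR, had means of 43.1 ± 4.75, 50.4 ± 6.29, 51.8 ± 3.89 and 42.8 ± 10.3 FPKM (SD, n = 3 each). Its VO RV libraries read 54.4, 34.6 and 39.3, so that replicate 1 stood with the high groups.

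Nrf1 (ENSRNOG00000008752, listed on chromosome 4 from 57378069 to 57445341, plus strand) stayed between 6.80 and 8.95 FPKM in all 12 libraries. Its means were 8.25 ± 0.835, 7.40 ± 0.422, 7.56 ± 0.725 and 8.17 ± 0.405 FPKM (SD, n = 3 each). Tfam (ENSRNOG00000000613, listed on chromosome 20 from 18594037 to 18606151, plus strand) stayed between 30.4 and 41.8 FPKM, with means of 36.4 ± 4.89, 35.0 ± 1.54, 34.4 ± 1.43 and 34.3 ± 5.12 (SD, n = 3 each). The group means of these 2 genes thus differed far less than those of the coactivators.

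Between the ventricles of sham rats, Ppargc1b, Ppara and Ppargc1a were lower in the LV. Genes counted as DEGs when the adjusted p from limma was under 0.05 and the fold change exceeded 1.3. The log2 difference, sham LV minus sham RV, was −0.81 ± 0.13 (SE) for Ppargc1b (adjusted p = 0.0319), −0.97 ± 0.18 for Ppara (adjusted p = 0.0325) and −0.78 ± 0.19 for Ppargc1a (adjusted p = 0.0496). These 3 of 10 regulators were DEGs in that direction, against 2.35% of all tested genes. None of the 3 was called without sham LV replicate 1 or 2, sham RV replicate 1 or 2, or VO LV replicate 2, with adjusted p from 0.0504 to 0.176, and 0% to 0.0288% of all tested genes were lower in those fits. With the replicate number as a block none was called either, with adjusted p from 0.0741 to 0.0928. Esrrb differed by −1.44 ± 0.38 but missed the threshold (adjusted p = 0.0578), and Ppard differed by −0.24 ± 0.10 (adjusted p = 0.164). The other 5 lay between −0.29 and 0.43, with adjusted p from 0.205 to 0.832. At an unadjusted p under 0.05 with the same fold, 4 of 10 were lower in sham LV, against 9.63% of all tested genes. The sham LV libraries lay wholly below those of sham RV for 6 regulators (Ppargc1a, Ppargc1b, Ppara, Ppard, Esrrb and Esrrg), against 16.6% of all tested genes. For each of them the exact two-sided permutation test gave p = 0.10, the smallest that 3 libraries against 3 allow.

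The cell make-up of the sham samples also differed by marker genes, and its part in these results was not tested. The summed FPKM of 6 endothelial markers were 486 to 535 in sham LV and 337 to 372 in sham RV, and 4 of the 6 were higher in sham LV at an unadjusted p under 0.05 and a fold over 1.3. All 5 red cell markers were higher in sham LV, with a median log2 difference of 0.71. The sums of 3 other lists also lay wholly higher in sham LV, with 1 marker of each past that threshold. They were 112 to 126 against 83.5 to 95.9 for macrophages and 489 to 656 against 422 to 460 for smooth muscle and pericytes. For fat-cell markers, mostly Fabp4, they were 911 to 1160 against 573 to 616. Of 9 ventricular cardiomyocyte markers, 1 was higher and 4 were lower in sham LV, and their sums were 20923 to 21396 against 17144 to 19601. In bulk tissue, fewer cells of a type and less RNA per cell cannot be told apart. An alternative chosen after the data were seen took the mean log2 cardiomyocyte marker level, not the sum, as a covariate. With it the differences were −0.77 for Ppargc1b, −1.01 for Ppara and −0.75 for Ppargc1a. None of the 10 regulators was a DEG, against 0.0288% of all tested genes lower in that fit.

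In the LV after VO, 5 regulators were higher but just missed the adjusted threshold. This comparison and the sham comparison hold the same 3 sham LV libraries with opposite signs, so one is not independent of the other. The log2 difference, VO LV minus sham LV, was 0.92 ± 0.18 (SE) for Ppara (adjusted p = 0.0517), 0.49 ± 0.10 for Ppard (adjusted p = 0.0532), 0.92 ± 0.19 for Ppargc1a (adjusted p = 0.0540), 0.61 ± 0.13 for Ppargc1b (adjusted p = 0.0553) and 1.72 ± 0.38 for Esrrb (adjusted p = 0.0582). Esrrg differed by 0.44 ± 0.19 (adjusted p = 0.201). The other 4 regulators lay between −0.31 and 0.27. None of the 10 was a DEG by limma on FPKM, where 0.0719% of all tested genes rose, and 6 of 10 were higher at an unadjusted p under 0.05 and a fold over 1.3, against 9.27% of all tested genes. With voom on the recovered reads, 5 of 10 were DEGs, against 2.18% of all tested genes higher by that fit. The VO LV libraries lay wholly above those of sham LV for 7 regulators (Ppargc1a, Ppargc1b, Ppara, Ppard, Esrra, Esrrb and Esrrg), against 16.7% of all tested genes, and wholly below for Pparg, against 15.7%. At the unadjusted threshold 4 of 9 cardiomyocyte markers were higher and 1 lower in VO LV (median 0.38), and 2 of 6 endothelial markers were lower. The cardiomyocyte sums were 19682 to 21081 FPKM in VO LV against the 20923 to 21396 of sham LV, and the endothelial sums were 381 to 424 against 486 to 535. With the mean log2 cardiomyocyte marker level as a covariate the LV responses of Ppara, Ppard, Ppargc1a, Ppargc1b and Esrrb were 0.48 to 1.49. Their adjusted p was then 0.202 to 0.210.

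The sex of the pups is not in the labels, and Y-linked transcripts followed the groups in part. The Y-linked genes Eif2s3y, Ddx3y, Kdm5d and Uty were at 1.43 FPKM or more in sham LV replicates 1 and 2, sham RV replicates 1 and 2 and VO RV replicate 3. They were at 0.03 FPKM or less in the other 7 libraries, all 3 of VO LV among them, leaving aside a second entry named Ddx3y that was at 0.71 or less in every library. Sham LV replicate 3, the one sham LV library without these transcripts, read 5.75 FPKM for Ppargc1a, 7.02 for Ppargc1b, 2.75 for Ppara, 9.76 for Ppard and 3.33 for Esrrb. All 3 VO LV libraries were above this 1 library for each of the 5 genes. Since no VO LV library had these transcripts, sex and VO cannot be fully told apart in the LV. With the Y-linked level as a covariate the LV responses were 0.79 for Ppargc1a, 0.66 for Ppargc1b, 1.00 for Ppara, 0.41 for Ppard and 1.36 for Esrrb, with adjusted p from 0.274 to 0.287.

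In the RV no regulator passed the adjusted threshold, and Ppargc1b, Ppara and Esrrb were lower after VO at the unadjusted one. Ppargc1b differed by −0.73 ± 0.13 (SE) in VO RV minus sham RV on the log2 scale (adjusted p = 0.367), Ppara by −0.62 ± 0.18 (adjusted p = 0.541) and Esrrb by −0.92 ± 0.38 (adjusted p = 0.579). The other 7 lay between −0.40 (Ppargc1a) and 0.14 (Nrf1). No regulator was a DEG by limma, or by voom, and 0% of all tested genes fell by that rule. At an unadjusted p under 0.05 and a fold over 1.3, 3 of 10 were lower, against 3.06% of all tested genes. The VO RV libraries lay wholly below those of sham RV for 4 regulators (Ppargc1a, Ppargc1b, Ppara and Ppard), against 6.87% of all tested genes, and wholly above for Nrf1, against 5.64%. Esrrb depended on single libraries, since its difference was −0.46 without VO RV replicate 3, the lowest, −0.70 without sham RV replicate 1, the highest, and −0.24 without both. Without VO RV replicate 1, 6 of 10 regulators were lower at the unadjusted threshold, against 4.83% of all tested genes. Among the markers, 2 of 9 cardiomyocyte genes were lower and 3 of 8 macrophage genes higher in VO RV. The cardiomyocyte sums of VO RV were 13509 to 20387 FPKM, the lowest being replicate 2, which also had the highest fibroblast sum, 4935 FPKM. With the mean log2 cardiomyocyte marker level as a covariate the RV differences were −0.67 for Ppargc1b, −0.68 for Ppara and −0.70 for Esrrb. Adjusted p was then 0.680 to 0.742, and 2 of 10 regulators were lower at the unadjusted threshold, against 2.73% of all tested genes.

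The atrial genes Sln and Bmp10 set 2 RV libraries apart. Sln read 388 FPKM in VO RV replicate 2 and 97.7 in sham RV replicate 1, against 0.68 or less in the other 10 libraries. Bmp10 read 72.4 and 12.6 there, against 0.15 or less. The other listed atrial markers were present in every library, with Nppa at 64.2 to 3037 FPKM, Myl4 at 126 to 599 and Myl7 at 21.4 to 463. Sham RV replicate 1 lay within the LV range for Nppa (625) and Myl4 (191) but above it for Myl7 (138). With the mean log2 level of all 5 markers as a covariate, 3 of 10 regulators were DEGs between the sham ventricles, against 3.7% of all tested genes. None was a DEG in VO RV against sham RV (0%) or in VO LV against VO RV (0.0144%). At the unadjusted threshold that fit counted 3 of 10 lower in VO RV than in sham RV, against 4.41%, and 5 of 10 higher in VO LV than in VO RV, against 5.31%. With the same covariate, all 5 of the regulators called in the difference between ventricles (described next) remained DEGs there, where 6.49% of all tested genes were higher by that fit. In VO LV against sham LV 4 of 10 were DEGs, against 2.01% of all tested genes.

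**Figure D2:**
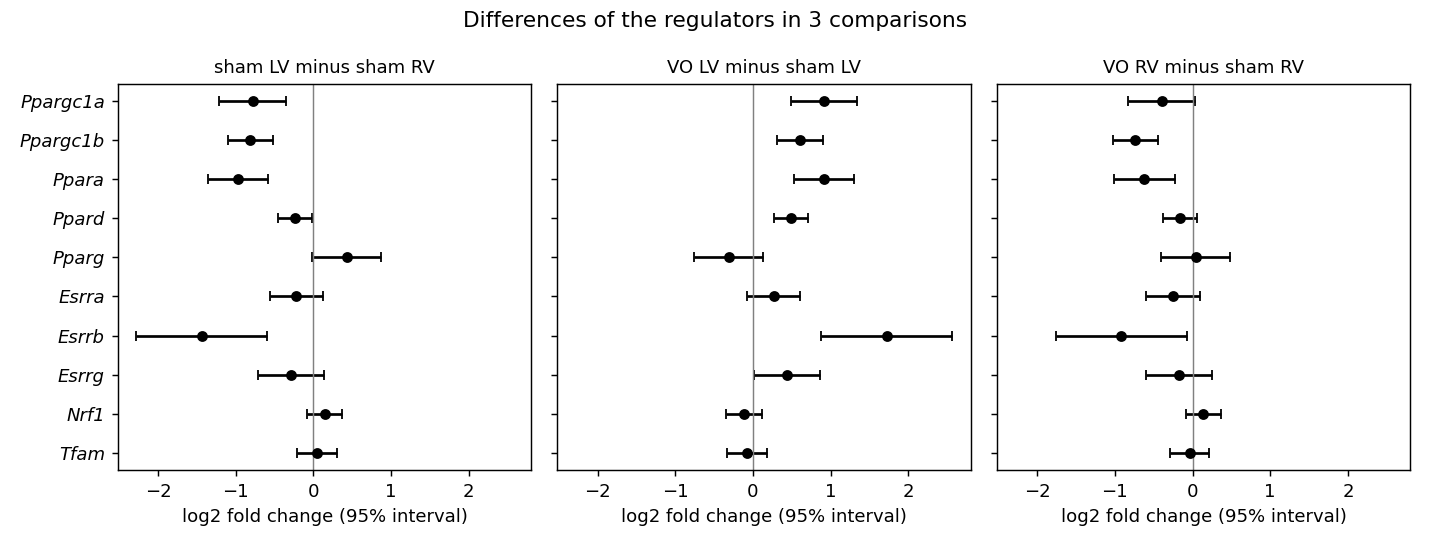
Log2 fold change of each regulator (horizontal axis) with its 95% interval (bars) in 3 comparisons of groups of 3 libraries. The intervals of Ppargc1a, Ppargc1b, Ppara, Ppard and Esrrb lie below 0 in sham LV minus sham RV and above 0 in VO LV minus sham LV, and the first and second panels share the sham LV libraries.

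Between the ventricles after VO no regulator passed the adjusted threshold. In VO LV minus VO RV the log2 difference was 0.53 ± 0.13 (SE) for Ppargc1b (adjusted p = 0.250), 0.53 ± 0.19 for Ppargc1a (adjusted p = 0.352), 0.57 ± 0.18 for Ppara (adjusted p = 0.310), 0.42 ± 0.10 for Ppard (adjusted p = 0.241) and 1.20 ± 0.38 for Esrrb (adjusted p = 0.312). No regulator was a DEG by limma or by voom, and 0.00719% of all tested genes were higher by that rule. At an unadjusted p under 0.05 and a fold over 1.3, 5 of 10 were higher in VO LV, against 3.85% of all tested genes. Without VO RV replicate 3 the count was 3, against 2.1%. The groups did not overlap for these 5, against 8.45% of all tested genes. The other 5 regulators lay between −0.11 and 0.32. In this comparison 6 of 8 fibroblast markers were lower in VO LV at the unadjusted threshold (median −0.55) and 3 of 9 cardiomyocyte markers were higher and 0 lower. The summed fibroblast markers were 2063 to 2543 FPKM in VO LV and 2533 to 4935 in VO RV, and their part in the result was not tested.

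The difference between the ventricles in their response to VO was tested directly, as the LV response minus the RV response. It was 1.34 ± 0.19 (SE) on the log2 scale for Ppargc1b (95% interval 0.93 to 1.75, adjusted p = 0.0246), 1.54 ± 0.25 for Ppara (0.98 to 2.09, adjusted p = 0.0249) and 2.64 ± 0.54 for Esrrb (1.45 to 3.83, adjusted p = 0.0319). It was 1.31 ± 0.27 for Ppargc1a (0.71 to 1.92, adjusted p = 0.0329) and 0.65 ± 0.14 for Ppard (0.34 to 0.96, adjusted p = 0.0352). Both coactivators, Ppara and Ppard of the PPAR genes and 1 of 3 ERR genes passed, 5 of 10 regulators against 3.46% of all tested genes. With the replicate number as a block none of these 5 passed (adjusted p from 0.064 to 0.075), and 0% of all tested genes were higher. Esrra (0.52 ± 0.22, adjusted p = 0.172) and Esrrg (0.61 ± 0.27, adjusted p = 0.187) passed at the unadjusted threshold alone, where 7 of 10 regulators were counted against 13.1% of all tested genes. Nrf1 (95% interval −0.57 to 0.07), Tfam (−0.40 to 0.33) and Pparg (−0.98 to 0.28) did not pass. This difference holds the sham LV and sham RV libraries with opposite signs, so it shares its data with the sham comparison and with each response.

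The direction of these 5 differences was the same with every library left out in turn, and the adjusted p was not always under 0.05. The range was 1.13 to 1.48 for Ppargc1a, 1.22 to 1.44 for Ppargc1b, 1.38 to 1.71 for Ppara, 0.57 to 0.72 for Ppard and 2.18 to 3.06 for Esrrb. No regulator was called without sham LV replicate 1 or 2, without sham RV replicate 1 or 2, or without VO LV replicate 2 or 3, with adjusted p for the 5 genes between 0.055 and 0.099. In those 6 fits 0% to 0.0144% of all tested genes were higher, so the calls were lost over nearly the whole table. With the mean log2 cardiomyocyte marker level as a covariate the 5 differences were 0.65 to 2.19, with adjusted p from 0.206 to 0.238. In that fit 0% of all tested genes were higher. In this difference 4 of 9 cardiomyocyte markers were higher, and 4 of 8 macrophage, 2 of 6 endothelial and 2 of 7 smooth muscle markers were lower, at the unadjusted threshold. With the Y-linked covariate they were 0.62 to 2.47, with adjusted p from 0.044 to 0.057.

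**Figure D3:**
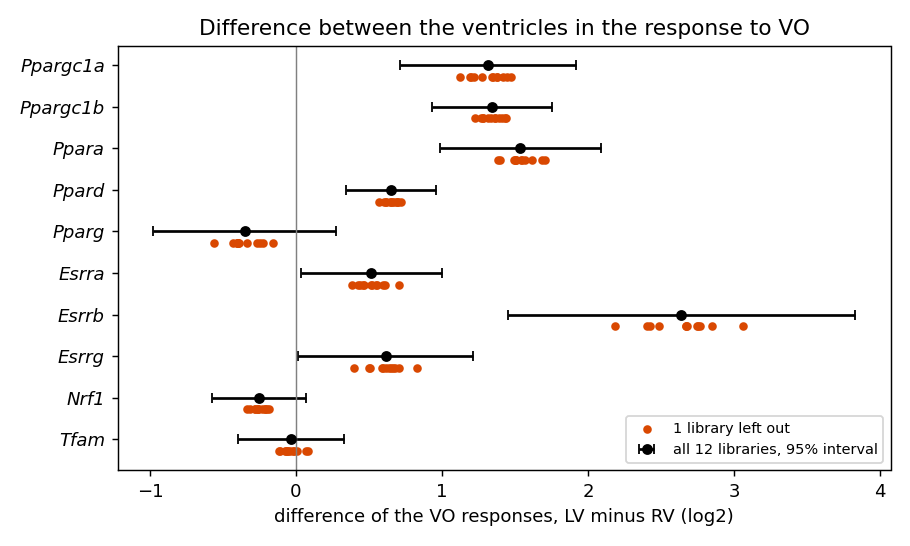
Difference of the VO responses, LV minus RV, on the log2 scale (horizontal axis) for each regulator. Black points and bars are the value with 95% interval from all 12 libraries and the orange points are the values with 1 library left out. The orange points of Esrrb run from 2.18 to 3.06, and those of the other 4 called genes are also all above 0.

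Over the 12 libraries Pearson's r of log2 levels was 0.93 for Ppargc1a with Esrrb, 0.91 for Esrrb with Esrrg, 0.88 for Ppargc1b with Ppara and 0.83 for Ppargc1a with Ppargc1b. After group means were removed, r was 0.77, 0.93, 0.44 and 0.61 for the same pairs. For Esrrb and Esrrg the value within groups was thus as high as over all libraries. Ppargc1a had r of −0.61 with Pparg, −0.21 with Nrf1 and −0.09 with Tfam, and within groups these were −0.51, 0.58 and 0.11. Within groups Nrf1 had r of 0.48 with Ppargc1b and 0.52 with Ppara, where the values over all 12 libraries were −0.41 and −0.33. Ppara with Esrrb went from 0.70 over all libraries to −0.21 within groups. The libraries share groups, and these values describe 12 points without a test. Among all tested genes, those most like Ppargc1b were AABR07062799.2 (r = 0.94), Gemin5 (0.92) and Atxn1 (0.92). Those most like Ppard were Mfsd6 (0.94), Amotl2 (0.94) and Mmgt1 (0.93), and those most like Esrra were Ppp1r37 (0.94), Bcam (0.92) and Dhrs4 (0.91). For Tfam they were Hmgn2 (0.93), Emc8 (0.92) and Zbed5 (0.91), and for Nrf1 they were Tatdn1 (0.87), Ssr3 (0.87) and C1galt1c1 (0.85).

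The genes with which the regulators work were described as 6 lists. Counts below are of list members with an unadjusted p under 0.05 and a fold over 1.3, and up to 4 genes with the smallest p of a list and comparison were eligible to be named. By this rule 8.19% of all tested genes were higher and 9.63% lower in sham LV, 9.27% were higher and 6.44% lower in VO LV, 1.85% were higher and 3.06% lower in VO RV, and 13.1% were higher and 9.94% lower in the difference of responses. The counts of the lists are set beside these shares as a description, and no test compared a list with other genes. Among 19 RXR partners, coactivators and corepressors, 1 was higher and 7 lower when sham LV was set against sham RV, 6 were higher and 1 lower in VO LV (against sham LV), and 0 were higher and 3 lower in VO RV (against sham RV). The coactivator and lipid phosphatase Lpin1 was lower in sham LV (−1.15 ± 0.20 (SE), adjusted p = 0.0319) and rose in VO LV (1.298 ± 0.20, adjusted p = 0.0499). Its means, in the same order of groups, were 3.11, 7.57, 8.38 and 5.64 FPKM. The steroid receptor coactivator Ncoa2, the other DEG of the list between the sham ventricles (−0.96, adjusted p = 0.0423), was 3.90, 8.27, 7.76 and 5.50 FPKM, and the PPAR partner Rxra 15.7, 24.3, 22.9 and 17.4. Lpin1 (1.72), Ncoa2 (1.42) and Rxra (0.99) were the 3 DEGs of the list in the difference of responses, where 8 were higher and 1 lower.

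Among 28 tested PPAR target genes of fatty acid use, 0 were higher and 6 lower in sham LV, 8 were higher and 0 lower in VO LV, and 1 was higher and 2 lower in VO RV. The median log2 differences were −0.21, 0.26 and −0.21, against 0.01, −0.02 and 0.00 over all tested genes. In the difference of responses 12 were higher and 0 lower. The DEGs there were Acsl1 (0.94 ± 0.19 (SE), adjusted p = 0.0317), which activates long-chain fatty acids, and Hadhb (0.96 ± 0.21, adjusted p = 0.0358), of the trifunctional β-oxidation enzyme. Cpt1b (0.69 ± 0.17, adjusted p = 0.0484), the muscle form of the enzyme that admits fatty acids to mitochondria, and Pdk4 (2.30 ± 0.58, adjusted p = 0.0491), the kinase that restrains pyruvate oxidation, were the other 2. Pdk4 means were 7.92 ± 3.45, 19.2 ± 5.95, 34.6 ± 5.70 and 18.2 ± 8.56 FPKM (SD, n = 3 each). Acsl1 and Hadhb were also DEGs between the sham ventricles, at −0.55 and −0.61. The 2 list members lower in VO RV were Acsl1 (−0.50, adjusted p = 0.536) and Etfdh (−0.38, adjusted p = 0.570). The study reported more ACSL1 protein in the RV under VO, which is a different measure. Angptl4, an inhibitor of lipoprotein lipase, was the one list member higher in VO RV, by 0.73 (adjusted p = 0.579). Its value was 0.69 in VO LV and −0.04 in the difference of responses, so it was not particular to the RV.

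Among 30 tested ERR and PGC-1 target genes of oxidative metabolism, 1 was higher and 7 lower in sham LV, 7 were higher and 0 lower in VO LV, and 0 were higher and 3 lower in VO RV. In the difference of responses 8 were higher and 0 lower, and 6 were DEGs, against 3.46% of all tested genes. The 4 with the smallest p were Opa1 (0.91 ± 0.19 (SE), adjusted p = 0.0319), which fuses the inner mitochondrial membrane, Ogdh (2.76 ± 0.57, adjusted p = 0.0322) and Cs (1.301 ± 0.29, adjusted p = 0.0369) of the citric acid cycle, and the complex I subunit Ndufs1 (1.14 ± 0.25, adjusted p = 0.0352). Ogdh means were 13.5 ± 6.71, 39.9 ± 12.1, 46.0 ± 15.5 and 21.1 ± 9.02 FPKM (SD, n = 3 each). The list's median was 0.00 between the sham ventricles, against 0.01 over all tested genes, although 7 of its members were lower there.

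Of 23 NRF partners and genes of the mitochondrial DNA machinery, 0 were higher and 1 lower in sham LV, 1 was higher and 1 lower in VO LV, 0 were higher and 1 lower in VO RV, and 2 were higher and 1 lower in the difference of responses. The import receptor Tomm70a was the one DEG, with −0.86 between the sham ventricles (adjusted p = 0.0485) and 1.43 in the difference of responses (adjusted p = 0.0329). Polrmt, the mitochondrial RNA polymerase, differed by −0.44 in VO LV (adjusted p = 0.143). Of 11 tested mRNAs encoded in mitochondrial DNA, 0 were higher or lower in any of the 5 comparisons. The share of reads on mitochondrial genes ranged from 14.4% to 26.2%, both extremes being sham LV libraries.

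Among 24 tested genes upstream of PGC-1α, 1 was higher and 7 lower in sham LV, 7 were higher and 1 lower in VO LV, and 0 were higher and 3 lower in VO RV. The AMPK catalytic subunit Prkaa2 had means of 2.52 ± 1.18, 14.6 ± 7.53, 15.1 ± 5.89 and 6.05 ± 2.84 FPKM (SD, n = 3 each). It differed by −2.27 ± 0.44 (SE) between the sham ventricles (adjusted p = 0.0332) and by 3.58 ± 0.62 in the difference of responses (adjusted p = 0.0249). The myocyte enhancer factors Mef2d (1.11, adjusted p = 0.0312, and −0.67 between the sham ventricles, adjusted p = 0.0418) and Mef2a (1.29, adjusted p = 0.0463) and the Hippo pathway factor Tead1 (1.59, adjusted p = 0.0449) were the other 3 DEGs of the list in that difference, where 10 were higher and 1 lower.

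**Figure D4:**
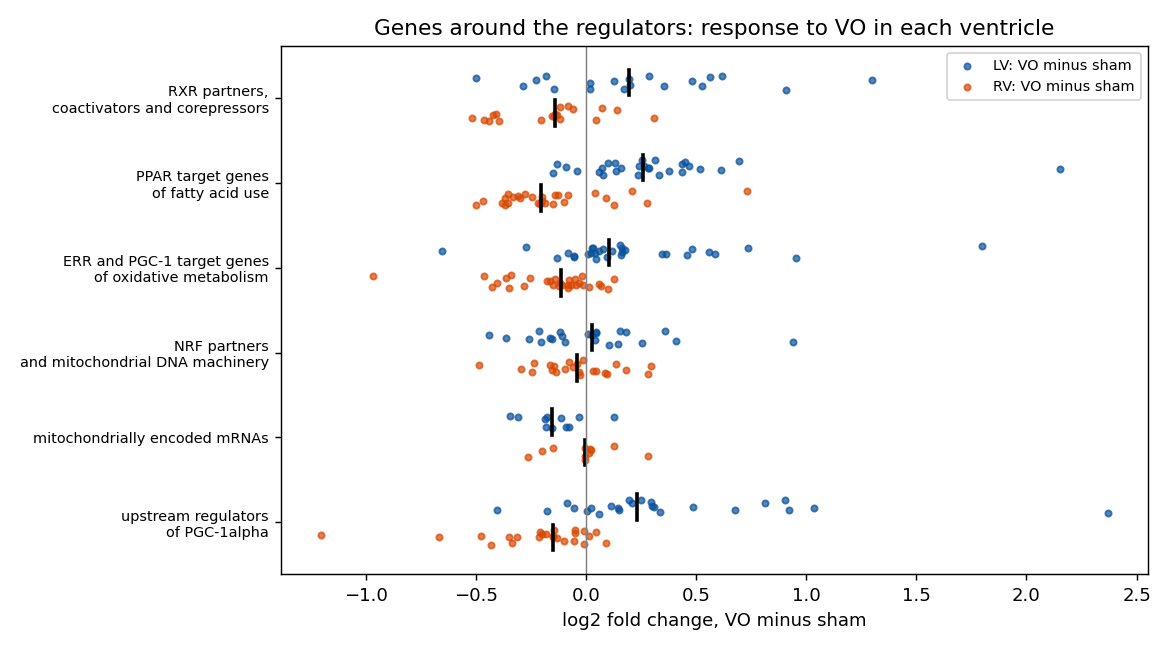
Log2 fold change, VO minus sham (horizontal axis), of the tested genes of 6 lists, in the LV (blue) and RV (orange). Each point is a gene and black lines are medians. PPAR target genes have medians of 0.26 in the LV and −0.21 in the RV, and mitochondrially encoded mRNAs have −0.16 and 0.00.

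Long and short transcripts differed in these comparisons as well. The median log2 difference between the sham ventricles was 0.10 for 6322 genes under 2000 bases and −0.08 for 2571 genes of 4000 bases or more, and in the difference of responses these medians were −0.14 and 0.08. Ppard (5620 bases) and Esrrg (5330) are long, Esrrb (1302) and Tfam (1520) are short, and the other 6 regulators have 2129 to 3515 bases. Removing the length trend of each library was an alternative chosen after the data were seen. With it the difference of responses was 2.72 for Esrrb, 1.52 for Ppara, 1.28 for Ppargc1b, 1.27 for Ppargc1a and 0.52 for Ppard. The adjusted p of Ppard was then 0.053.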

How the data were processed

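RNA from LV and RV free walls (4 groups of 3 libraries) was sequenced after poly-T selection. Reads were aligned with HISAT2 2.0.5 and counted with featureCounts 1.5.0-p3, from which the authors calculated the deposited FPKM. The build, annotation and strand setting are not given in the sources used here. FPKM multiplied by length fell on whole reads (100% of values under 200 reads, tolerance 0.02), with 14121713 to 16871371 reads on genes per library.

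FPKM were divided by median-ratio size factors and 0.5 was added before log2. The 13910 genes whose mean FPKM reached 0.5 were fitted in R 4.3.3 with limma 3.58.1 (eBayes with trend) in 1 model of 4 groups, with Benjamini-Hochberg adjustment over all of them. DESeq2, which the study used, was not run, and voom on the recovered reads was the count-based alternative. At the same thresholds the study reported many more DEGs than limma called here. This held between the ventricles without VO and for the response of each ventricle, so the shares called here are those of limma on FPKM. Fold changes are on the log2(FPKM + 0.5) scale and understate those of low genes. Exact two-sided permutation tests (SciPy 1.17.1) used the FPKM. The procedure was tested on simulated data.

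The regulators, gene lists and markers were chosen with earlier results of these data known. The genes named are the 10 regulators, up to 4 genes per list and comparison with the smallest unadjusted p under 0.05 and a fold over 1.3, and the 3 genes most like 5 of the regulators. Markers and Y-linked genes are named beside the results they touch. Regulators with an unadjusted p of 0.05 or more are given by range, except where a named comparison includes them. Alternatives were other scalings, pseudocounts, filters, voom, a replicate block, covariates and each library left out. The 2 RV libraries with high Sln and Bmp10 were kept.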

Additional observations from a re-analysis of the deposited data

Results flagged for a closer look

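The response to VO differed between the LV and RV for 5 regulators, by the limma test of the difference itself, and each is given as the LV response minus the RV response on the log2 scale. The values were 1.31 for Ppargc1a, 1.34 for Ppargc1b, 1.54 for Ppara, 0.65 for Ppard and 2.64 for Esrrb. All 5 calls were lost when any 1 of several libraries was left out (adjusted p from 0.055 to 0.099). They were also lost with the replicate block (0.064 to 0.075) and with the cardiomyocyte covariate (0.206 to 0.238). In those fits 0% to 0.0144% of all tested genes were higher. For Ppargc1b, every VO LV library was above every sham LV library and every VO RV library was below every sham RV library, and the same held for Ppargc1a, Ppara and Ppard. For Esrrb it held only in the LV, since the VO RV libraries (1.68 to 6.86 FPKM) overlapped those of sham RV (6.15 to 9.998 FPKM). Of all tested genes, 16.7% lay wholly higher in VO LV and 6.87% wholly lower in VO RV, and the share with both was not counted. The same libraries gave the limma test, so this separation describes that result and adds no evidence to it. Dixon's test for an outlying sample was not applied, since each group has 3 libraries.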

How the results depend on the processing

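Of 695 repeats of 26 single-gene differences, 634 kept their direction and side of the unadjusted threshold, 61 (of 7 differences) no longer passed it, and 0 reversed. The counts of DEGs among the 10 regulators moved with the share of all tested genes called, which follows each count in brackets. Between the sham ventricles the count of lower genes was 3 (2.35%), and it was 0 with all genes above 0 (0.0278%), 0 without both sham RV replicate 1 and VO RV replicate 3 (0%) and 0 with the cardiomyocyte covariate (0.0288%), the last 2 chosen after the data were seen. With 1 library left out it ranged from 0 to 4 (0% to 4.12%). For higher genes in VO LV against sham LV the count was 0 (0.0719%), and it was 4 at a mean FPKM of at least 1 (1.3%), 5 with voom (2.18%), 1 with the 6 libraries alone (0.784%), 4 with the atrial covariate (2.01%) and 5 without both libraries (3.13%), with 0 to 5 over single libraries left out (0% to 3.34%). In the difference of responses the count was 5 (3.46%), and it was 1 with all genes above 0 (0.088%), 3 with the Y-linked covariate (1.16%), 0 without both libraries (0%) and 0 with the cardiomyocyte covariate (0%), with 0 to 6 over single libraries left out (0% to 5.45%). At the unadjusted threshold the count of lower genes in VO RV against sham RV was 3 (3.06%), and 2 to 6 with 1 library left out (1.34% to 4.92%). For higher genes in VO LV against VO RV the count at this threshold was 5 (3.85%). It was 3 without both libraries (2.28%), 3 with the cardiomyocyte covariate (2.82%) and 3 to 7 with 1 library left out (2.1% to 5.88%). The causes were not tested.

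Same-numbered libraries of the ventricles had correlated deviations of 0.04, 0.04 and 0.12 in sham and 0.05, −0.05 and −0.22 in VO, and the labels do not say what a number marks, so the samples were not treated as pairs. Y-linked transcripts matched within the 3 same-numbered sham pairs and not within VO pair 3, and whether the sham numbers mark the same heart is not known. With the replicate number as a block, 0 regulators were DEGs between the sham ventricles (0.0144% of all tested genes) and 0 in the difference of responses (0%), where the 5 log2 differences were again 0.65 to 2.64 and the adjusted p 0.064 to 0.075. With 3 libraries a group the exact test cannot go below 0.10, and Esrrb, at 33 to 250 reads a library, has the fewest reads of the 5 genes called in that difference.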
